A study of Mus musculus with 11 samples.

Results

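The genes described here are 10 genes of autophagy, the route by which a cell wraps part of its own cytoplasm in a double membrane and delivers it to the lysosome. They were taken by symbol from a table of 49585 genes, and all 10 were present, each on 1 row. Ulk1 and Becn1 start the process, Atg7 and Atg5 belong to the conjugation machinery, Map1lc3a, Map1lc3b, Gabarap and Gabarapl2 encode the ubiquitin-like proteins that coat the membrane, and Sqstm1 and Calcoco2 encode receptors that tether cargo to that coat. They were taken by function, with earlier results of these data known, and no measured value enters the rule.

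RNA had been sequenced from C57BL/6 mouse embryos of 4 groups: zygotes made by ROSI (2 libraries) and by ICSI (3), and embryos of the 2-cell stage made by ROSI (3) and by ICSI (3). ICSI, intracytoplasmic sperm injection, places a sperm in the oocyte, and ROSI, round spermatid injection, places the haploid male germ cell before it has become a sperm. ROSI embryos were activated in CZB medium free of calcium with 5 mM SrCl2 for 1 to 2 h and then moved to KSOM medium, and ICSI embryos were cultured in KSOM. The male germ cell and the activation were therefore compared together and cannot be told apart. The labels give neither the number of embryos in a library nor whether replicates came from separate injections, so p-values measure the spread between these libraries, which may be technical.

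Autophagy begins when the ULK1 kinase complex switches on a lipid kinase complex built around Beclin 1, after which a conjugation system in which ATG7 is the activating enzyme and ATG5 is joined to ATG12 attaches proteins of the LC3 and GABARAP families to the growing membrane. The receptor p62 (Sqstm1) binds both ubiquitin-marked cargo and those coat proteins. NDP52 (Calcoco2) is also classed as a cargo receptor, and whether its mouse form binds ubiquitin was not examined here. In the mouse, autophagy is known to be induced soon after fertilization, and embryos without Atg5 from either oocyte or sperm are known to stop before the blastocyst.

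Values are TPM, the usual length-corrected share of a library, in which reads are divided by gene length and by the library's total, so that levels can be set beside each other between genes. A difference is one of log2(TPM + 1), a scale that compresses the fold of low genes, and comes from a limma model of 21938 genes with Benjamini-Hochberg adjustment over all of them. A gene was called at an adjusted p under 0.05. In bulk embryos, fewer cells with a transcript and less of it per cell cannot be told apart, and TPM gives a share of each library rather than an amount per embryo.

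The recovered depth was 30.4 to 86.0 M (mega) reads in zygotes and 8.48 to 32.9 M reads in 2-cell embryos, the ICSI 2-cell replicate 1 being the shallowest. A member had between 24 and 29476 reads in a library. Protein-coding genes held 65.9% to 71.5% of TPM in zygotes and 44.6% to 51.4% in 2-cell embryos. A single gene, Gm23935, held 15.0% and 13.3% of TPM in the ROSI zygotes and 8.31% to 10.6% in the ICSI zygotes. In 2-cell embryos it held 12.7% to 23.7% after ROSI and 16.2% to 17.6% after ICSI. The 10 oocyte and embryo markers were present in every group and summed to 9035 to 12810 TPM in zygotes and to 2531 to 3997 TPM in 2-cell embryos. Spermatid markers summed to 89.8 to 178.3 TPM in ROSI zygotes against 23.9 to 30.3 in ICSI zygotes, and to 39.3 to 58.2 TPM in ROSI 2-cell embryos against 9.97 to 15.0 in ICSI 2-cell embryos, with 6 of 10 higher after ROSI at each stage. Smcp was at 0 in both ICSI groups. Cumulus cell markers summed to 2.22 to 4.05 TPM in zygotes and to 30.0 to 53.1 TPM in 2-cell embryos, mostly Amhr2, while Amh was at 0 in zygotes.

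From the zygote to the 2-cell stage most members changed level. After ICSI, 7 of the 10 members rose, 2 fell (Atg5 and Sqstm1) and Atg7 did not pass, where 33.0% of all genes tested rose and 35.0% fell. After ROSI, 8 rose and the same 2 fell, where 35.6% of all genes rose and 32.3% fell. The median difference over the 10 was 1.50 on the log2 scale after ICSI and 1.51 after ROSI, against 0.00 and 0.19 over all genes tested. With TPM rescaled to protein-coding genes, 15276 genes were tested, and their medians were 0.20 after ICSI and 0.32 after ROSI. These are medians of another set of genes, so they do not give the size of the shift. For Atg7 after ICSI the difference was 0.32 as reported and 0.83 with this rescaling. All 10 members kept their direction under each scaling tried.

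**Figure D1:**
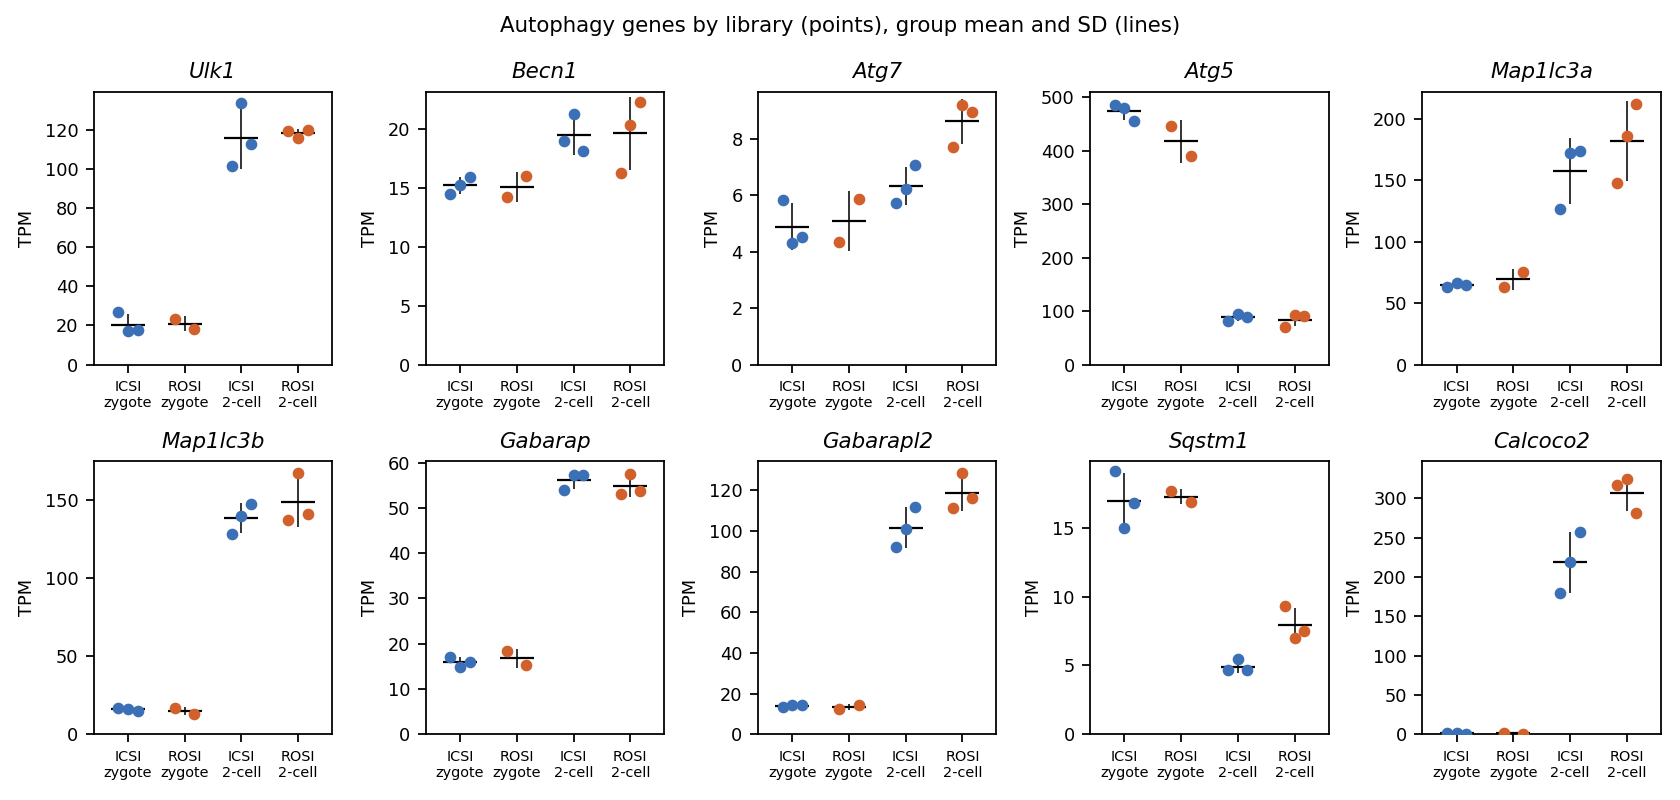
TPM of the 10 members, 1 panel a gene with a linear axis from 0, with a point for each of the 11 libraries and lines for the group mean and SD (blue ICSI, orange ROSI). Atg5 leads in every zygote library at 389.7 to 485.6 TPM, and Calcoco2, at 0.57 to 1.47 TPM in zygotes, leads in every 2-cell library at 179.3 to 324.8 TPM.

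Promoters of members with opposite courses are shown for reference. They are the 250 bases before the RefSeq start of each gene (GRCm38.p6), on the gene's strand, from 5′ to 3′. Ulk1 and Gabarapl2 rose between the stages and Atg5 and Sqstm1 fell. Capitals mark CACGTG, the core E-box letters that factors of the TFEB family, regulators of autophagy and lysosome genes, are known to bind.
Ulk1, chr5:110810082-110810331, minus strand: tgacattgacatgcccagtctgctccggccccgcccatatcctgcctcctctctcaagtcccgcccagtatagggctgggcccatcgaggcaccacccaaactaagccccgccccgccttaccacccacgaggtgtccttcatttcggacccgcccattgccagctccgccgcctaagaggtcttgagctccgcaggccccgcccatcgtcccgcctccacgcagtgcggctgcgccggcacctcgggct
Gabarapl2, chr8:111940453-111940702, plus strand: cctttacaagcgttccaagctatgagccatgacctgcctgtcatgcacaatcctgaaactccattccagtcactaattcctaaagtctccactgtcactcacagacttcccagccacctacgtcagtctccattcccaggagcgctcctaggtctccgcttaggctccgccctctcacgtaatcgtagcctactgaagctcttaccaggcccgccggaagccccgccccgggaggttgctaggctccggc
Atg5, chr10:44268089-44268338, plus strand: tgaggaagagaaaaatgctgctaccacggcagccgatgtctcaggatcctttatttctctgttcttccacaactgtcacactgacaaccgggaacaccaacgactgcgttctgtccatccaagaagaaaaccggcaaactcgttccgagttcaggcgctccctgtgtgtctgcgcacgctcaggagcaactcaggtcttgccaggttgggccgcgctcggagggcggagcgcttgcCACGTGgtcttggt
Sqstm1, chr11:50210821-50211070, minus strand: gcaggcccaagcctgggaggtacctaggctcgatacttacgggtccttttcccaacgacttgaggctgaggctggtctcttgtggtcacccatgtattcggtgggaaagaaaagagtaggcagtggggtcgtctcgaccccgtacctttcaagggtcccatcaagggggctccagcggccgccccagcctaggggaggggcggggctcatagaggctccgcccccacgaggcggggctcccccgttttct

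The table of promoters held 7 of the 10 members (Ulk1, Atg7, Atg5, Map1lc3b, Gabarap, Gabarapl2 and Sqstm1). Becn1, Map1lc3a and Calcoco2 had no entry. On either strand, CACGTG occurred in the 250 bases of 2 of the 7. It began 14 bases before the start in Atg5 and 132 bases before it in Atg7. Over all 32851 promoter windows, searched with 50 further bases after the start, 7.15% held it. The shares given below for other letters count those 50 bases too. TAATCC, the letters bound by bicoid-type homeobox factors, occurred in Atg7 alone, 174 bases before the start, against 7.06% of all windows. AAGGTCA, a half-site of nuclear receptors such as NR5A2, occurred in none of the 7, against 4.72% of all windows. The Atg7 window (chr6:114670846-114671095, plus strand) lies before an internal RefSeq start, within the gene as GENCODE places it, so both of its matches are inside the gene. The CACGTG and TAATCC matches do not overlap each other. These are matches of letters, not measured sites. In the 250 bases before the start, Ulk1, Gabarapl2, Atg5 and Sqstm1 held 20, 12, 17 and 14 CpG dinucleotides. Map1lc3b, Gabarap and Atg7 held 30, 6 and 3, where the median over the same 250 bases of all windows was 6. The Gabarap window (chr11:69991120-69991369, plus strand) also lies mostly within the gene, which GENCODE starts at 69991143. Those of Map1lc3b, Ulk1 and Sqstm1 reach into their genes by fewer bases.

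Ulk1 (mm10, chr5:110784488-110810097, minus strand) encodes the kinase that starts autophagy in response to nutrient and energy signals. Its level was 23.5 and 18.1 TPM in the ROSI zygotes and 26.8, 16.9 and 17.5 TPM in the ICSI zygotes. In 2-cell embryos it was 119.1, 115.9 and 119.9 TPM after ROSI and 101.5, 133.4 and 112.8 TPM after ICSI. Every 2-cell library stood above every zygote library, and ROSI and ICSI overlapped at both stages. Ulk1 rose by 2.47 on the log2 scale after ICSI (SE 0.17, limma adjusted p = 3.062e-07) and by 2.46 after ROSI (SE 0.19, limma adjusted p = 8.545e-07), which in mean TPM was 5.69-fold and 5.68-fold.

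Becn1 (mm10, chr11:101285952-101302286, minus strand) encodes Beclin 1, the scaffold of the class III phosphatidylinositol 3-kinase complex. Among the members called at the 2-cell stage against the zygote it had the smallest change. It read 14.2 and 16.0 TPM in the ROSI zygotes and 14.5, 15.2 and 16.0 TPM in the ICSI zygotes, against 16.3, 20.4 and 22.3 TPM in the ROSI 2-cell embryos and 19.0, 21.3 and 18.1 TPM in the ICSI 2-cell embryos. The 2-cell libraries lay above the zygote libraries after either injection, but by little. The rise was 1.28-fold after ICSI (log2 difference 0.33, SE 0.13, limma adjusted p = 0.0359) and 1.30-fold after ROSI (0.35, SE 0.14, limma adjusted p = 0.0472). These small rises did not hold throughout: the call was lost in 7 of 22 alternatives after ICSI and in 15 of 22 after ROSI. After ICSI it was lost with no filter (limma adjusted p = 0.0534), with no trend (0.0531), without any 1 of the 3 ICSI zygotes (0.0549 to 0.0946) and without ICSI 2-cell replicate 1 (0.0555) or 2 (0.117). After ROSI it was lost without ROSI zygote replicate 1 (0.233) or 2 (0.0677), without ROSI 2-cell replicate 2 (0.107) or 3 (0.134), and also without any 1 of the ICSI zygotes (0.0561 to 0.0652) or ICSI 2-cell replicate 1 (0.0533) or 3 (0.0554), which are outside that comparison. Median-ratio scaling (0.0528), a pseudocount of 0.1 (0.0501), no filter (0.0699), no trend (0.0675) and the ROSI groups fitted alone (0.110) ended it too. Becn1 shares 3104 exon bases with Cntd1 on the opposite strand, whose own level was 0.30 to 1.04 TPM.

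Atg7 (mm10, chr6:114643097-114860614, plus strand) encodes the activating enzyme that both conjugation branches of autophagy depend on, and it was the least abundant member of the machinery in zygotes. The ROSI zygotes had 4.33 and 5.85 TPM and the ICSI zygotes 5.84, 4.31 and 4.51 TPM. At the 2-cell stage the ROSI libraries had 7.72, 9.19 and 8.94 TPM and the ICSI libraries 5.72, 6.22 and 7.06 TPM. After ROSI the 2-cell libraries stood apart from the zygotes, whereas after ICSI they overlapped. Atg7 rose 1.69-fold after ROSI (log2 difference 0.67, SE 0.17, limma adjusted p = 0.00488), and the adjusted p was 0.0659 without ROSI zygote replicate 1. After ICSI the ratio was 1.30 (0.32, SE 0.15, limma adjusted p = 0.0819), and it passed in 5 of 22 alternatives, among them without ICSI zygote replicate 1 (adjusted p = 0.0346). The difference between the changes after ROSI and after ICSI was 0.34 (SE 0.23, limma adjusted p = 0.507) and did not pass.

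Atg5 (mm10, chr10:44268358-44364291, plus strand) encodes the protein that, joined to ATG12, brings the conjugation step to the membrane. It was the most abundant member in zygotes by a wide margin. Among the 10 members, it went the other way from the rest of the machinery. Of 9 other conjugation genes tested, 4 also fell after ICSI and 2 rose. The level of Atg5 was 446.5 and 389.7 TPM in the ROSI zygotes and 485.6, 479.9 and 456.1 TPM in the ICSI zygotes. In 2-cell embryos it read 69.8, 91.9 and 91.5 TPM after ROSI and 82.5, 94.4 and 88.3 TPM after ICSI. All zygote libraries stood well above all 2-cell libraries. Atg5 fell by 2.41 on the log2 scale after ICSI (SE 0.12, limma adjusted p = 1.655e-08) and by 2.30 after ROSI (SE 0.13, limma adjusted p = 6.288e-08), leaving mean levels 5.36-fold and 4.96-fold lower. By mean TPM it ranked 260 in the table in ROSI zygotes and 239 in ICSI zygotes, and 1354 and 1351 in the corresponding 2-cell embryos.

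The LC3 and GABARAP proteins are the ATG8 family, which is joined to the lipid phosphatidylethanolamine and is what the cargo receptors hold. All 4 members of the family rose in both kinds of embryo. Map1lc3b (mm10, chr8:121590361-121598760, plus strand), the LC3 form most used as an autophagosome marker, rose the most in fold within the family. It had 16.9 and 13.1 TPM in the ROSI zygotes and 16.6, 16.4 and 14.7 TPM in the ICSI zygotes, and 137.7, 167.3 and 141.4 TPM in the ROSI 2-cell embryos and 128.2, 140.2 and 147.6 TPM in the ICSI 2-cell embryos. The stages were far apart and the injections overlapped. The rise was 8.72-fold after ICSI (log2 difference 3.05, SE 0.12, limma adjusted p = 3.854e-09) and 9.92-fold after ROSI (3.23, SE 0.13, limma adjusted p = 7.201e-09). Of its exonic windows of 50 bases, 6.01% occur elsewhere, in transcripts of 388 genes, most often in the pseudogene Gm6055. Gm6055 rose as well, from 2.84 to 20.1 TPM after ICSI and from 2.51 to 29.0 TPM after ROSI. Whether reads are shared between them was not tested.

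Gabarapl2 (mm10, chr8:111940703-111953612, plus strand), also known as GATE-16, had a course of like size. Its level was 12.6 and 14.5 TPM in the ROSI zygotes and 13.2, 14.5 and 14.3 TPM in the ICSI zygotes, then 111.5, 128.5 and 116.3 TPM in the ROSI 2-cell embryos and 92.0, 101.1 and 111.9 TPM in the ICSI 2-cell embryos. The stages were again far apart, and at the 2-cell stage the lowest ROSI library lay just under the highest ICSI library. Gabarapl2 rose 7.26-fold after ICSI (log2 difference 2.77, SE 0.10, limma adjusted p = 2.984e-09) and 8.79-fold after ROSI (3.05, SE 0.12, limma adjusted p = 4.477e-09). Of its exonic windows of 50 bases, 12.2% occur elsewhere in annotated transcripts, mostly in the pseudogene Gm3724, so a part of its reads could be split with that copy. Gm3724 also rose, from 1.26 to 15.9 TPM after ICSI and from 1.69 to 18.3 TPM after ROSI.

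Gabarap (mm10, chr11:69991143-69994951, plus strand), the founding member of its branch, rose less. It had 18.3 and 15.3 TPM in the ROSI zygotes and 17.1, 14.9 and 16.0 TPM in the ICSI zygotes, and between 53.2 and 57.4 TPM in all 6 of the 2-cell libraries. Relative to its level, this was the narrowest range of any member over those 6 libraries. The rise was 3.51-fold after ICSI (log2 difference 1.75, SE 0.10, limma adjusted p = 4.433e-08) and 3.26-fold after ROSI (1.65, SE 0.11, limma adjusted p = 1.893e-07).

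Map1lc3a (mm10, chr2:155276297-155278073, plus strand) encodes the other LC3 form and started from the highest zygote level of the family. The ROSI zygotes had 63.4 and 75.2 TPM and the ICSI zygotes 62.7, 66.7 and 64.8 TPM. The 2-cell levels were the most scattered of the family, at 147.4, 186.1 and 211.8 TPM after ROSI and 126.3, 172.3 and 173.8 TPM after ICSI. The stages did not overlap. Map1lc3a rose 2.43-fold after ICSI (log2 difference 1.26, SE 0.16, limma adjusted p = 2.869e-05) and 2.62-fold after ROSI (1.37, SE 0.17, limma adjusted p = 3.735e-05).

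Because the 4 genes rose by different folds, the composition of the family's transcripts shifted. Summed with Gabarapl1, the fifth gene of the family measured, it had 115.3 ± 4.81 TPM (SD, n = 2) in ROSI zygotes and 111.2 ± 1.40 TPM (SD, n = 3) in ICSI zygotes. The sum was 504.5 ± 47.7 TPM (SD, n = 3) in ROSI 2-cell embryos and 454.1 ± 47.4 TPM (SD, n = 3) in ICSI 2-cell embryos. Map1lc3a made up 60.0% and 58.2% of the sum in ROSI and ICSI zygotes and 35.9% and 34.5% at the 2-cell stage. Map1lc3b went from 13.1% and 14.3% to 29.5% and 30.6%, and Gabarapl2 from 11.7% and 12.6% to 23.6% and 22.4%. Gabarapl1 was under 1 TPM in every library and was not tested. It was listed at 0 in ICSI 2-cell replicates 1 and 2 and had 0.036 TPM in replicate 3, against 0.41, 0.50 and 0.36 TPM in the ROSI 2-cell libraries.

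**Figure D2:**
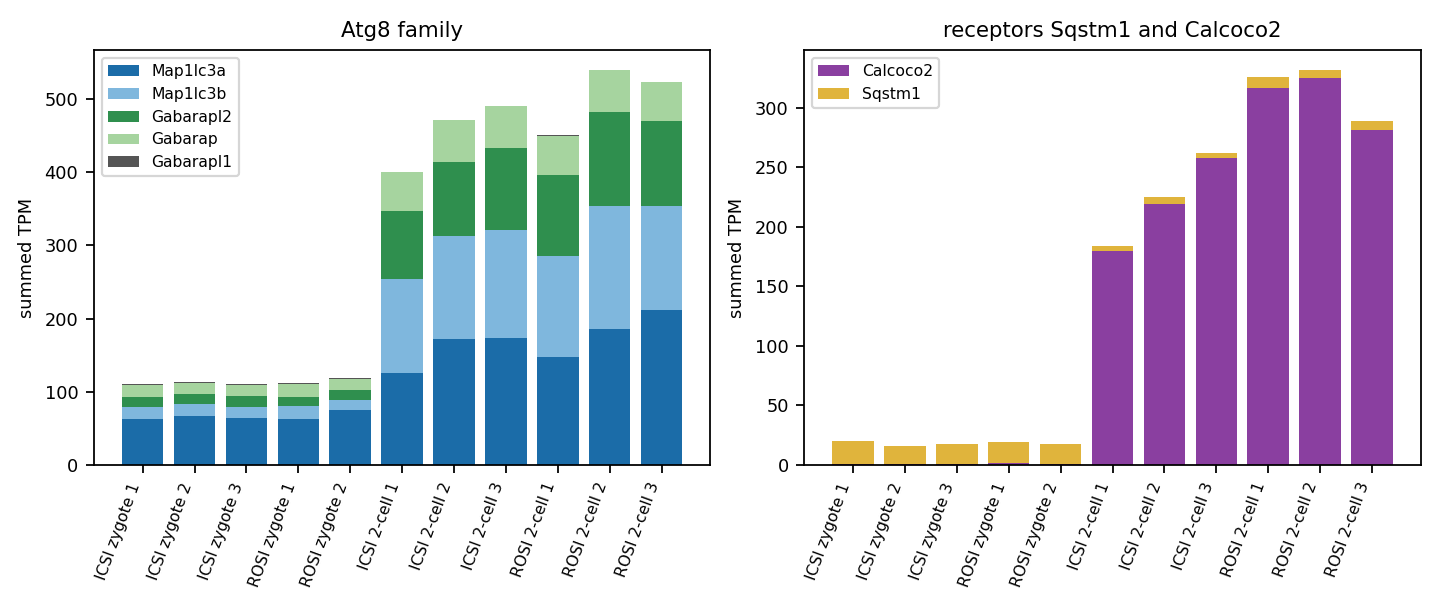
Summed TPM in each library, stacked by gene, for the ATG8 family (left) and for the receptors Sqstm1 and Calcoco2 (right), on linear axes from 0. The ATG8 family sum averages 115.3 and 111.2 TPM in ROSI and ICSI zygotes and 504.5 and 454.1 TPM in the 2-cell embryos, and the receptor sum passes from 18.3 and 17.9 TPM, mostly Sqstm1, to 315.5 and 223.6 TPM, mostly Calcoco2.

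The receptors changed in opposite directions. Calcoco2 (mm10, chr11:96099326-96111964, minus strand) encodes NDP52, a receptor known from the clearance of bacteria and damaged mitochondria. It was close to absent in zygotes, with 1.47 and 0.57 TPM after ROSI (24 and 27 reads) and 1.08, 1.06 and 0.67 TPM after ICSI (45, 43 and 24 reads). In 2-cell embryos it had 316.7, 324.8 and 281.2 TPM after ROSI and 179.3, 219.2 and 257.5 TPM after ICSI. It went from the least abundant member to the most abundant, and no ROSI 2-cell library overlapped an ICSI one. The rise was 6.82 on the log2 scale after ICSI (SE 0.18, limma adjusted p = 4.761e-10) and 7.29 after ROSI (SE 0.21, limma adjusted p = 1.051e-09), or 234.1-fold and 301.1-fold in mean TPM, from few zygote reads. Its rank by mean TPM passed from 14795 to 189 after ROSI and from 15125 to 380 after ICSI. Of its exonic windows of 50 bases, 10.2% occur elsewhere, most of them in the pseudogene Gm11701, which itself had 3.18 and 1.51 TPM in ROSI and ICSI 2-cell embryos.

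Sqstm1 (mm10, chr11:50199366-50210827, minus strand) encodes p62, the most studied cargo receptor and itself a substrate that autophagy degrades. It had 17.7 and 16.9 TPM in the ROSI zygotes and 19.1, 15.0 and 16.8 TPM in the ICSI zygotes. The 2-cell levels were 9.32, 6.96 and 7.52 TPM after ROSI and 4.64, 5.44 and 4.65 TPM after ICSI. Every 2-cell library lay under every zygote library, and the ICSI 2-cell libraries lay under the ROSI ones. Sqstm1 fell by 1.60 on the log2 scale after ICSI (SE 0.13, limma adjusted p = 1.200e-06) and by 1.04 after ROSI (SE 0.15, limma adjusted p = 9.701e-05), to mean levels 3.46-fold and 2.18-fold lower. Of the summed receptor transcripts, Sqstm1 made up 94.5% and 94.8% in ROSI and ICSI zygotes and 2.52% and 2.24% at the 2-cell stage.

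**Figure D3:**
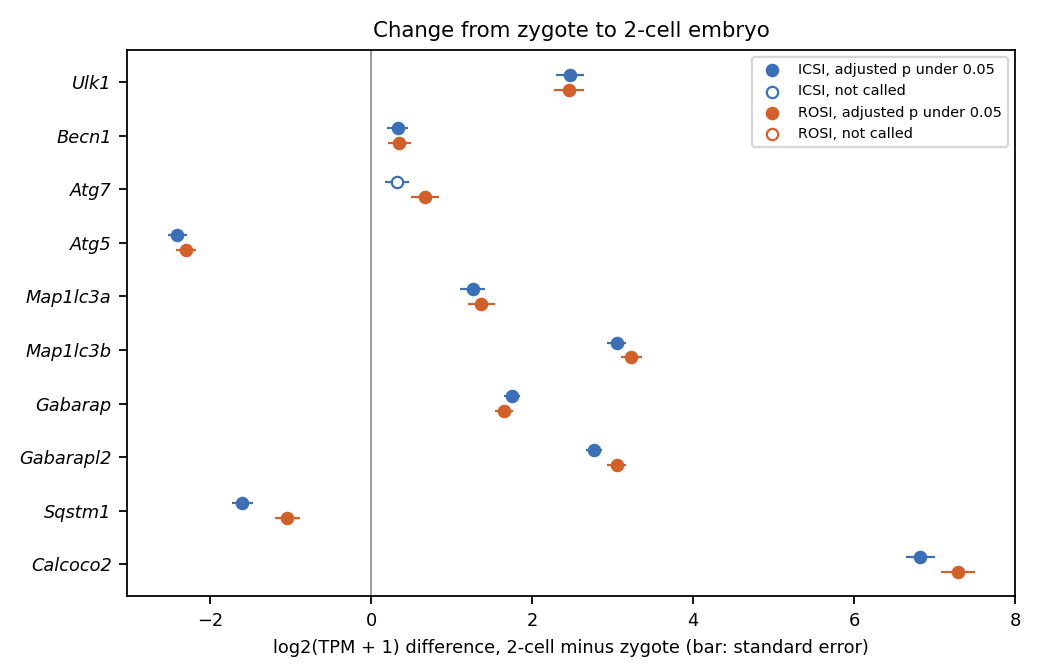
Log2 difference in TPM + 1 between 2-cell embryos and zygotes for each member after ICSI (blue) and after ROSI (orange), with bars of 1 standard error of the limma fit and filled points for an adjusted p under 0.05. Calcoco2 stands at 6.82 and 7.29, Map1lc3b, Gabarapl2 and Ulk1 between 2.46 and 3.23, and Atg5 and Sqstm1 below 0.

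The order of the members by level was thus nearly the same after either injection and differed between the stages. In zygotes Atg5 came first and Map1lc3a second, each apart from the next gene. A middle block of Ulk1, Sqstm1, Gabarap, Becn1, Map1lc3b and Gabarapl2 lay between means of 13.5 and 20.8 TPM, and within it neighbours overlapped except for Ulk1 and Sqstm1 in the ROSI zygotes. Atg7 and then Calcoco2 closed the order. At the 2-cell stage Calcoco2 came first, apart from Map1lc3a. Map1lc3a and Map1lc3b overlapped, as did Gabarapl2 and Ulk1, and Atg5, Gabarap, Becn1, Atg7 and Sqstm1 followed. Sqstm1 came last, overlapping Atg7 after ROSI and apart from it after ICSI.

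Between ROSI and ICSI zygotes no member passed. The 10 differences ran from -0.18 (Atg5) to 0.09 (Map1lc3a) on the log2 scale, each with a limma adjusted p of 1.0, where 0.146% of all genes tested were called. None had an unadjusted p under 0.05, where 1392 of all 21938 genes tested did. Atg5 was the only member whose libraries did not overlap, its ROSI zygotes lying under all ICSI zygotes (log2 difference -0.18, SE 0.13), where 19.4% of all genes were lower in that way. Calcoco2 had the widest standard error, 0.21, around a difference of 0.03.

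Between ROSI and ICSI 2-cell embryos 1 member passed. Sqstm1 was 1.62-fold higher after ROSI (log2 difference 0.59, SE 0.13, limma adjusted p = 0.0239), with 7.93 ± 1.23 TPM (SD, n = 3) against 4.91 ± 0.46 TPM (SD, n = 3), where 4.93% of all genes tested were called higher and 9.51% in either direction. It rests on 208 to 337 reads per ROSI library and 59 to 219 per ICSI library. The call was lost without ROSI 2-cell replicate 1 (limma adjusted p = 0.0565), without ICSI 2-cell replicate 1 (0.0640) or 3 (0.0571), and with the 2-cell groups fitted alone (0.0983), while the difference stayed between 0.38 and 0.67. In the same comparison 6 of 10 spermatid markers were higher, 4 of 10 oocyte and embryo markers and 4 of 6 markers of the 2-cell stage were lower, and 0 of the 4 cumulus cell markers tested were called. Their part in the Sqstm1 difference was not tested.

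Sqstm1 shares 580 exon bases with Mrnip on the opposite strand, and whether counting used strand is not given in the sources used here. Mrnip, listed under its older symbol 3010026O09Rik and looked up after the Sqstm1 values were seen, had 24.7 TPM in ROSI and 28.9 TPM in ICSI 2-cell embryos (log2 difference -0.23, SE 0.14, limma adjusted p = 0.338). In that comparison its difference had the opposite sign to that of Sqstm1. From the zygote to the 2-cell stage Mrnip fell, as Sqstm1 did. Its log2 difference was -0.45 after ICSI (limma adjusted p = 0.0183) and -0.49 after ROSI (limma adjusted p = 0.0205). Of the exonic windows of 50 bases of Sqstm1, 15.5% occur elsewhere, all in Mrnip. Whether reads of Mrnip enter the Sqstm1 values was not tested.

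Calcoco2 and Atg7 were also higher in every ROSI than in every ICSI 2-cell library, without passing. For Calcoco2 the ROSI mean was 307.5 ± 23.2 TPM (SD, n = 3) and the ICSI mean 218.7 ± 39.1 TPM (SD, n = 3), in a ratio of 1.41 (log2 difference 0.50, SE 0.18, limma adjusted p = 0.112), and its adjusted p ranged from 0.0327 to 0.319 over the alternatives. Atg7 had 8.62 ± 0.78 TPM (SD, n = 3) and 6.33 ± 0.68 TPM (SD, n = 3), a ratio of 1.36 (0.39, SE 0.15, limma adjusted p = 0.130). With Sqstm1, 3 of the 10 members were higher without overlap, where 15.4% of all genes were, and none was lower in that way, where 11.8% of all genes were.

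The remaining members did not pass and their libraries overlapped. Gabarapl2 differed by 0.22 (SE 0.10, limma adjusted p = 0.195), Map1lc3a by 0.21 (SE 0.16) and Map1lc3b by 0.10 (SE 0.12). Ulk1, Becn1, Gabarap and Atg5 lay between -0.08 and 0.04. The median over the 10 was 0.15, against 0.04 over all genes tested. Over all genes, 1082 were called higher and 1005 lower after ROSI. That split moved to 1049 higher and 2384 lower with median-ratio scaling. With TPM rescaled to protein-coding genes it was 2223 higher and 1337 lower, of 15276 genes tested.

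**Figure D4:**
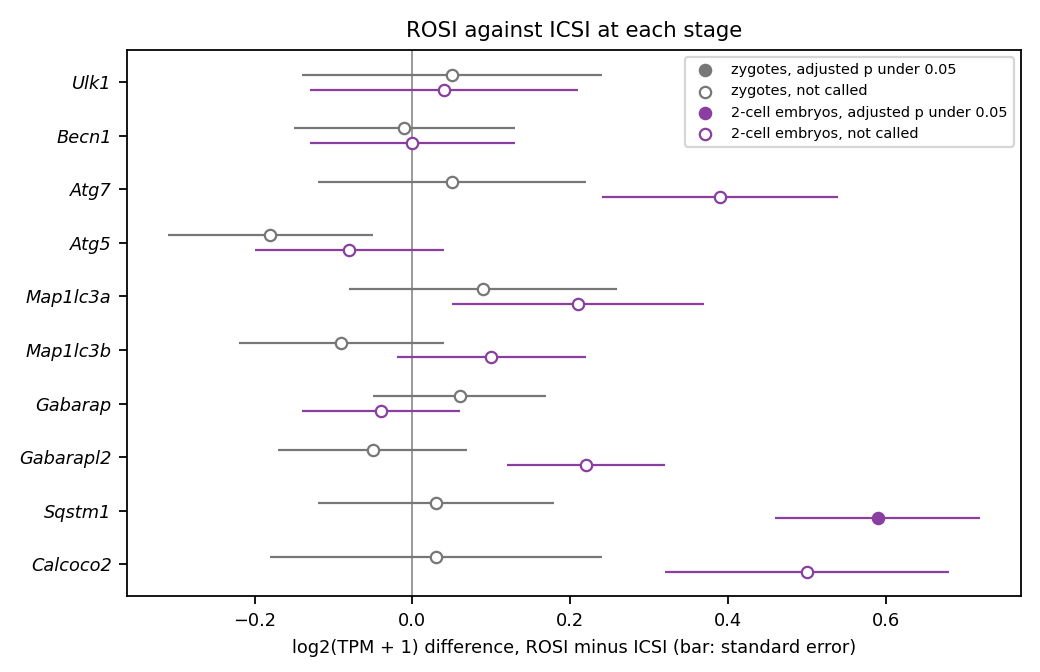
Log2 difference in TPM + 1 between ROSI and ICSI embryos for each member, in zygotes (grey) and in 2-cell embryos (purple), with bars of 1 standard error of the limma fit and filled points for an adjusted p under 0.05. The zygote differences lie between -0.18 and 0.09, and at the 2-cell stage Sqstm1 (0.59), Calcoco2 (0.50) and Atg7 (0.39) lie highest, of which only Sqstm1 passed.

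Whether the change between the stages differed after ROSI and after ICSI was tested as a difference of changes, in which no member passed and 0.0182% of all genes tested did. Sqstm1 had the largest value, 0.56 (SE 0.20, limma adjusted p = 0.234), and was the only member with an unadjusted p under 0.05. Of all 21938 genes tested, 3303 had an unadjusted p under 0.05. The fall of Sqstm1 was thus smaller after ROSI in these libraries, but the difference was not past the threshold. Calcoco2 followed with 0.47 (SE 0.28, limma adjusted p = 0.454), and Ulk1 and Becn1 had values of -0.01 and 0.02. These values share their libraries with the comparisons above and are not separate evidence.

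Around these members, 80 other genes of the pathway were taken from a list by role, all in the table, of which 79 were tested. From the zygote to the 2-cell stage after ICSI, 28 rose, 38 fell and 13 did not pass, with a median difference of -0.30. After ROSI, 33 rose, 31 fell and 15 did not pass, with a median of 0.04. Over all genes tested 33.0% rose and 35.0% fell after ICSI, and 35.6% rose and 32.3% fell after ROSI, which are the shares that the counts by role below stand against. Over this longer list rises and falls were closer in number than among the 10 members. With TPM rescaled to protein-coding genes the split after ICSI became 36 higher and 28 lower of 78 tested. At that setting 6480 of all 15276 genes tested were higher and 4936 lower.

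The other genes of the ULK1 initiation complex (Ulk2, Atg13, Rb1cc1 and Atg101) went with Ulk1: all 4 rose after ICSI and after ROSI, with medians of 1.37 and 1.57. Most partners of Becn1 did not go with it. In the lipid kinase complex 6 of 7 fell after ICSI (median -1.65) and 6 fell and 1 rose after ROSI (median -1.81). The 1 that rose was Atg14, from 87.9 to 108.1 TPM after ROSI (log2 difference 0.29, SE 0.12, limma adjusted p = 0.0479). After ICSI Atg14 did not pass (-0.10, SE 0.11, limma adjusted p = 0.403). Pik3c3, the catalytic subunit, had 60.3 TPM in ICSI zygotes and 6.49 TPM in ICSI 2-cell embryos (log2 difference -3.04, SE 0.13, limma adjusted p = 7.639e-09). Rubcn, an inhibitor of the complex, went from 150.0 to 16.8 TPM after ICSI (-3.10, SE 0.14, limma adjusted p = 9.985e-09) and from 136.4 to 13.6 TPM after ROSI (-3.24, SE 0.15, limma adjusted p = 2.035e-08).

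Among genes of membrane supply and lipid transfer, 7 of 9 rose after ICSI, and after ROSI 8 rose and 1 fell. Wdr45b, a phosphoinositide-binding protein of this step, went from 2.43 to 28.9 TPM after ICSI (log2 difference 3.13, SE 0.14, limma adjusted p = 8.325e-09). The other conjugation genes tested were mixed, as Atg7 and Atg5 were: 2 rose and 4 fell of 9 after ICSI, and 3 rose and 5 fell after ROSI. Of 13 other receptors, 8 fell and 4 rose after ICSI, and 7 fell and 4 rose after ROSI, against 35.0% of all genes falling after ICSI and 32.3% after ROSI. Optn, a receptor in clearance of mitochondria, went from 64.7 to 5.67 TPM after ICSI (-3.30, SE 0.10, limma adjusted p = 7.970e-10). Ncoa4, the ferritin receptor, went from 118.0 to 15.9 TPM after ROSI (-2.84, SE 0.19, limma adjusted p = 2.524e-07).

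Late steps were split. Of 13 fusion genes, 4 rose and 9 fell after ICSI, and 4 rose and 6 fell after ROSI. Stx17, the SNARE of the autophagosome, went from 46.5 to 5.03 TPM after ICSI (log2 difference -2.99, SE 0.15, limma adjusted p = 2.162e-08), and Vps18, a tethering subunit, from 0.61 to 12.5 TPM (3.07, SE 0.16, limma adjusted p = 2.515e-08). Lysosome genes and their regulators numbered 11, of which 4 rose and 5 fell after ICSI, and 5 rose and 3 fell after ROSI. Ctsl, a lysosomal protease, went from 4.39 to 364.4 TPM after ICSI (6.09, SE 0.16, limma adjusted p = 4.677e-10) and from 4.69 to 465.8 TPM after ROSI (6.36, SE 0.18, limma adjusted p = 1.091e-09). Lamp2, a lysosomal membrane protein, went from 2.58 to 34.5 TPM after ICSI (3.31, SE 0.12, limma adjusted p = 2.224e-09). Of 13 upstream kinases and related genes, 3 rose and 6 fell after ICSI, and 4 rose and 3 fell after ROSI.

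**Figure D5:**
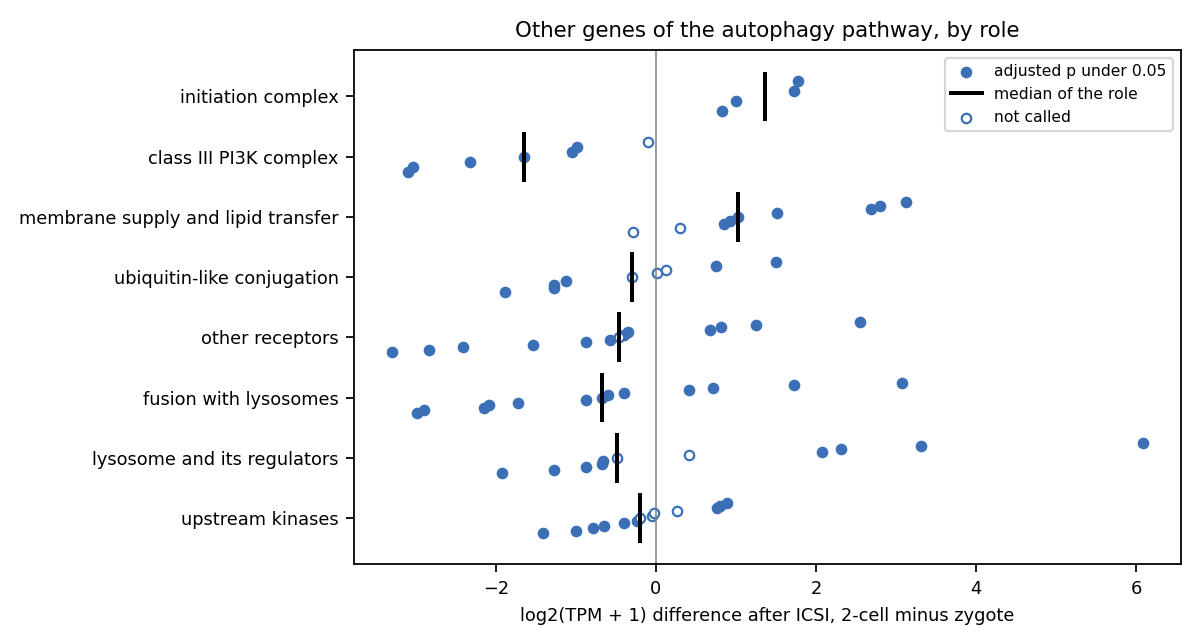
Log2 difference in TPM + 1 between 2-cell embryos and zygotes after ICSI for the other 79 pathway genes tested, by role, with 1 point per gene, filled where the adjusted p was under 0.05, and a black line at the median of the role. All 4 initiation genes lie above 0, and 6 of 7 genes of the lipid kinase complex were called lower.

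Between ROSI and ICSI 2-cell embryos, 6 of the 79 were higher and 5 lower, where 9.51% of all genes tested were called in either direction, and in zygotes 0 were higher and 1 lower, where 0.146% of all genes were called. With a library left out, 3 to 9 of the 79 passed at the 2-cell stage. Bnip3, a receptor on mitochondria, had 112.4 TPM after ROSI and 62.7 TPM after ICSI at the 2-cell stage (log2 difference 0.82, SE 0.21, limma adjusted p = 0.0363). Atg3, the enzyme that acts after Atg7, had 68.1 and 43.9 TPM (0.65, SE 0.16, limma adjusted p = 0.0310). Wdr45b had 49.1 and 28.9 TPM (0.74, SE 0.14, limma adjusted p = 0.0117), and Tfeb, the transcription factor, 1.47 and 0.44 TPM (0.79, SE 0.21, limma adjusted p = 0.0460). Tfeb was near the floor, at 0.14, 0.66 and 0.53 TPM in the ICSI 2-cell libraries. In replicate 1 of these, 3 reads of a gene of 2 kb are worth 0.396 TPM. Tfe3, of the same family, had 17.7 and 19.5 TPM and did not pass (-0.13, SE 0.14, limma adjusted p = 0.595).

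Lower after ROSI were Fundc1, another receptor on mitochondria, with 104.1 TPM where ICSI had 170.8 (log2 difference -0.72, SE 0.14, limma adjusted p = 0.0150), and Snap29, a SNARE partner of Stx17, at 41.5 against 58.5 TPM (-0.50, SE 0.13, limma adjusted p = 0.0364). Prkaa2, a catalytic subunit of AMP-activated kinase, had 1.24 and 2.33 TPM (-0.58, SE 0.15, limma adjusted p = 0.0385). Prkaa1, the more abundant catalytic subunit, was called higher after ROSI, with 14.2 and 10.2 TPM (0.43, SE 0.11, limma adjusted p = 0.0378). The listed subunits of this kinase summed to means of 82.7 TPM after ROSI and 65.8 TPM after ICSI in 2-cell embryos. In zygotes the sums went the other way, at 78.0 and 105.8 TPM. Stbd1, a receptor for glycogen, was lower after ROSI at both stages, with 28.9 against 49.5 TPM in 2-cell embryos (-0.76, SE 0.11, limma adjusted p = 0.00551) and 42.5 against 75.2 TPM in zygotes (-0.80, SE 0.13, limma adjusted p = 0.0478). The zygote call of Stbd1 was the only 1 in the list there. It was lost with a pseudocount of 5, with median-ratio scaling and with Gm23935 left out. No trend, a replicate block and the zygote groups fitted alone also ended it. Leaving out any 1 library other than ICSI zygote replicate 1 ended it too. With TPM rescaled to protein-coding genes, 25 of 78 pathway genes were higher and 5 lower in 2-cell embryos. Of all 15276 genes tested at that setting, 2223 were higher and 1337 lower. With median-ratio scaling 3 of 79 were higher and 7 lower, where 1049 of all 21646 genes were higher and 2384 lower. None of the 79 passed in the difference of changes by limma, and 23 had an unadjusted p under 0.05. Of all 21938 genes tested in it, 3303 had an unadjusted p under 0.05.

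Likeness of pattern was measured as Pearson's r of log2(TPM + 1) over the 11 libraries, against 8667 genes averaging at least 5 TPM. Since the libraries fall into 2 stages, r chiefly records the stage difference, and it is given as a description. Calcoco2 was most like Map3k3, Wac and Gpr161 (r = 0.999 each), and 794 genes had an r of at least 0.99 with it. Atg5 was most like Dhx57, Brip1 and Mtpap (r = 0.999 each), with 722 genes at 0.99 or more. Sqstm1 had no gene at that level, and its nearest were Ppp4r1 and Stk10 (r = 0.987 each). Becn1 was nearest to Chmp2a (r = 0.968) and Atg7 to Pfkl (r = 0.956), and neither had a gene at 0.99. Map1lc3b, Gabarapl2, Gabarap and Ulk1 had 783, 744, 619 and 345 genes at 0.99 or more, and Map1lc3a had 8.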

How the data were processed

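Embryo RNA came from an ISOGEN II extraction, of which 1 ng went into stranded SMART-seq libraries, per the labels' protocols. The authors deposited TPM per gene and library. The submitters' processing notes name fastp, Bowtie2, STAR 2.7.4a, featureCounts and build mm10, and the annotation, the strand setting and filters are not given in the sources used here. Reads were recovered as TPM times the exon length in GENCODE M21 (mm10), scaled per library; 80.3% to 86.3% of values came within 0.01 of a whole number, and all 110 values of the members within 0.037. TPM keeps no depth of its own, so this recovery rests on that annotation.

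The test took the 21938 genes that reached 1 TPM in 2 libraries or more, among them all 10 members. One limma 3.58.1 model in R 4.3.3 (lmFit, contrasts.fit, eBayes with a trend) of log2(TPM + 1) held the 4 group means over 11 libraries, with a Benjamini-Hochberg threshold of 0.05 per contrast; the model was tested on simulated data. Tables and plots used python 3.11.15, pandas 2.3.3, numpy 2.4.6 and matplotlib 3.10.9. Alternatives were pseudocounts of 0.1 and 5, a filter of 5 TPM and none, scaling by median ratios, TPM rescaled without Gm23935, no trend, array weights, a replicate block, only the groups of a contrast, each library left out and, chosen after seeing the data, TPM rescaled to protein-coding genes.

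Members and lists were chosen with earlier results of these data known. Named besides the members were, per contrast and direction, up to 4 pathway genes that passed without overlap and had the largest difference, and for likeness the 3 genes with the highest r. Prkaa1, Atg14 and Tfe3 were also named, outside that rule. A gene that the likeness rule named is not reported here. Retreg1 was found under the older symbol Fam134b. Promoter sequences are from RefSeq, GRCm38.p6.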

Additional observations from a re-analysis of the deposited data

How the results depend on the processing

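Of 1090 recomputed member values, 1056 stayed on their side of the threshold, 27 lost a call, 7 gained 1 and 0 called values changed sign. Ulk1, Atg5, Map1lc3a, Map1lc3b, Gabarap, Gabarapl2, Sqstm1 and Calcoco2 kept their stage calls in all alternatives. Counts of stage calls stayed within 1.5 times. In 2-cell embryos the members called ROSI against ICSI numbered 1, but 2 with a pseudocount of 5 (adding Calcoco2) or rescaled to protein-coding genes (adding Atg7), 0 with the 2-cell groups alone, and 0 to 1 with a library left out. Pathway genes called there numbered 11, but 6 without a filter, 30 rescaled to protein-coding genes, 2 with the groups alone and 3 to 9 with a library left out. All genes called there numbered 2087, but 1366 without a filter, 3433 with median-ratio scaling, 3560 rescaled to protein-coding genes, 597 with the groups alone and 947 to 2197 with a library left out. In zygotes 1 pathway gene was called, but 2 with array weights or rescaled to protein-coding genes, 0 with a pseudocount of 5, median-ratio scaling, Gm23935 left out, no trend or the groups alone, and 0 to 1 with a library left out. All genes called in zygotes numbered 32, but 64 and 9 with pseudocounts of 0.1 and 5, 87 without a filter, 52 with median-ratio scaling, 311 with array weights, 130 rescaled to protein-coding genes, 0 with the groups alone and 4 to 71 with a library left out. In the difference of changes 0 pathway genes were called, but 1 with a pseudocount of 5, a filter of 5 TPM, median-ratio scaling or array weights and 5 rescaled to protein-coding genes. All genes called there numbered 4, but 94 with a pseudocount of 5, 13 without a filter, 71 with a filter of 5 TPM, 347 (71 higher, 276 lower) with median-ratio scaling, 220 with array weights, 627 (377 higher, 250 lower) rescaled to protein-coding genes and 0 to 37 with a library left out. With the protein-coding rescaling 15276 genes were tested, against 21938 as reported. The causes were not tested. Deviations of same-numbered libraries correlated by -0.015 to 0.024 in 2-cell embryos and by 0.33 and 0.215 in the 2 zygote pairs. The labels do not say whether the numbers pair libraries, and they were not taken to. The positive zygote values do not show the zygote libraries to be unpaired. The 2 ROSI zygotes deviate from their mean by equal and opposite amounts, so those 2 values are not independent. With a replicate block, 4 genes and 0 pathway genes were called in zygotes, 1737 genes in 2-cell embryos and 0 in the difference of changes, and Becn1 after ROSI had an adjusted p of 0.0612. Depth limits Calcoco2 in zygotes, at 24 to 45 reads a library.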

Other observations

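The 4 genes looked up beside Calcoco2 on chromosome 11, after its values were seen, also rose between the zygote and the 2-cell stage, but by less. Of all genes tested, 33.0% rose after ICSI and 35.6% after ROSI. On the log2(TPM + 1) scale after ICSI, Ube2z rose by 1.33 (SE 0.14, limma adjusted p = 8.055e-06) and Snf8 by 2.10 (SE 0.23, limma adjusted p = 1.270e-05), against 6.82 for Calcoco2. Atp5g1 rose by 2.57 (SE 0.10, limma adjusted p = 3.596e-09) and Ttll6 by 2.12 (SE 0.20, limma adjusted p = 3.362e-06). None of these 4 passed between ROSI and ICSI 2-cell embryos, with differences of -0.12 to 0.29 and limma adjusted p of 0.394 to 0.922. In that comparison 9.51% of all genes tested were called in either direction.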
